A study of Drosophila melanogaster with 62 samples.

Results

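The ELAV family of Drosophila melanogaster was represented by 3 paralogous genes, elav (FBgn0260400), fne (found in neurons, FBgn0086675) and Rbp9 (FBgn0010263). They were chosen by name and gene identifier, and all 3 were present among the 12625 genes of the authors' early segment annotation and the 17753 genes of the head expression table. RNA was sequenced from pooled male embryos aged 14 to 16 h (early) or 18 to 22 h (late) and from male adult heads. Early embryos comprised 3 libraries each of the single mutants elav, fne and rbp9, of the double mutants elav-rbp9 and elav-fne, of the triple mutant elav-fne-rbp9 and of wild type. Late embryos were 3 elav, 4 fne and 5 elav-fne libraries, with 4 of wild type. A further 3 fne-rbp9 libraries carry a late label but were assigned to an early comparison, so their stage is unclear. A second experiment held nFne, elav-nFne and wild-type embryos, with 3 libraries each at both stages. Wild-type heads were sequenced in 2 libraries. Another 2 libraries, of RNA crosslinked to ELAV, were not analysed here. The labels name the mutated genes but no allele, and they do not say what nFne denotes. From what is known of the study, it is a form of FNE located in the nucleus.

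ELAV-family proteins, called Hu proteins in vertebrates, bind U-rich RNA through RNA recognition motifs. ELAV is a nuclear protein of neurons that alters splicing and the choice of poly(A) site. When it acts near a proximal poly(A) site, transcription runs on and the mRNA receives a longer 3′ UTR, the untranslated end that follows the stop codon. FNE and RBP9 are better known as cytoplasmic regulators of mRNA, and Rbp9 also functions in the female germ line.

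For the embryos the authors deposited comparisons, not values per library. They had divided each gene into numbered segments and compared the use of each segment, relative to the remainder of the gene, between mutant and wild type. Each comparison of the first experiment has 1 entry per listed gene, for a segment or a run of neighbouring segments. No adjusted p in these tables exceeded 9.93e-05, and the log2 fold nearest 0 was -0.75, so each one is a list of decreases. A gene that is not listed is not shown to be unchanged. The tables give no standard error for a fold, and the p-values are the authors'. They give use within a gene and not its level, so the loss of the mutated gene could not be checked in these embryos.

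All 3 genes had long 3′ UTRs that had been divided into several segments. The elav gene lies at X:509235-523226 on the minus strand (dm6). Its annotated transcripts end 556 bases past the stop codon in 2 cases, 942 bases in 1 and 8557 bases in 1. The fne gene lies at X:12917477-12950417 on the plus strand, where 2 of 11 transcripts have a 3′ UTR of 1202 bases, 1 of 4240 and 8 of 4927. The Rbp9 gene lies at 2L:2954762-2968434 on the plus strand. Of its 9 transcripts, 8 end at base 2964851, which is 1465 bases past the stop codon that 8 of them use, and 1 ends 5048 bases past it. Segments marked as 3′ UTR summed to 10010 bases in elav, 5256 in fne and 5211 in Rbp9, including coding bases where a segment held the stop codon. The median over the 11544 genes with such a segment was 757 bases, and the 3 sums exceeded those of 99.8%, 98.5% and 98.5% of these genes.

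The early annotation held 5 such segments in elav, 7 in fne and 3 in Rbp9, and the late one held 4, 5 and 3. Every one carried the authors' type code TE, whose meaning the files do not state and which was given to 37.1% of all 20927 early 3′ UTR segments. Some divisions fell at no annotated transcript end. These were 2 of the 5 early segment ends in elav, 4 of 7 in fne and 1 of 3 in Rbp9. One of them, in elav, was at X:513105, 4687 bases past the stop codon, and was present early but absent from the late annotation. It is 1 base from an annotated end of lncRNA:enrr, a non-coding gene on the same strand. The late annotation therefore had 1 elav segment of 6965 bases where the early one had segments of 3745 and 3226 bases.

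The fne gene contains a coding exon of 45 bases at X:12944293-12944337 that 2 of its 11 annotated transcripts include. No early or late segment overlapped it. The exon width that the authors used for fne in the head table, 9516 bases, was also 45 bases below the 9561 of the current annotation, whereas the widths of elav and Rbp9 were the same in both. Inclusion of this exon was thus not measured in any of these files. A different exon of 45 bases, X:12943086-12943130, was in all 11 transcripts and formed a segment of its own. Rbp9 had a coding exon of 15 bases at 2L:2962272-2962286, in 4 of 9 transcripts, which also formed a segment.

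**Figure D1:**
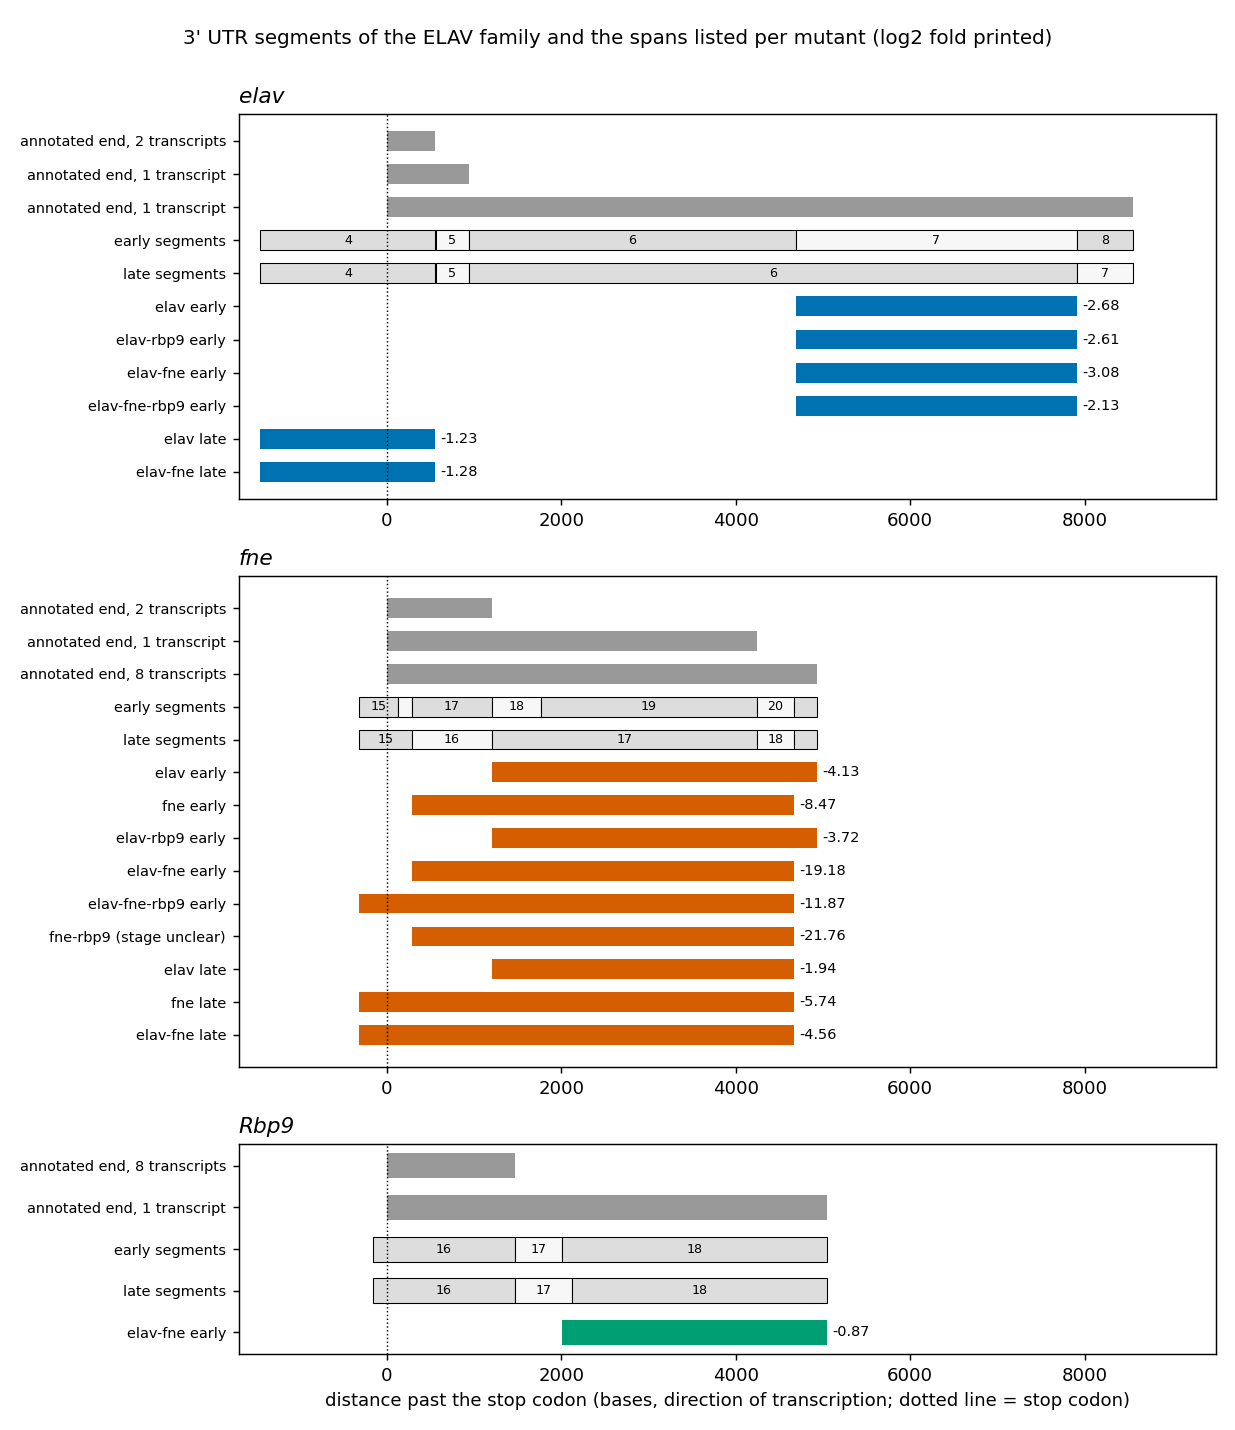
Position of annotated transcript ends, the authors' numbered 3′ UTR segments and the spans listed in each mutant (coloured bars with the authors' log2 fold), in bases past the stop codon. The elav bars lie 4687 to 7912 bases past the stop codon in the 4 early mutants and around the stop codon in the 2 late ones. In fne they begin at base 1203 in mutants that keep fne and nearer the stop codon in those that lack it.

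Over the 10 comparisons of the first experiment, 16 of 30 possible entries of the family were listed. The elav gene appeared in 6 of 6 comparisons of mutants that lack elav and in 0 of 4 that keep it. The fne gene appeared in 9 of 9 comparisons of mutants that lack elav, fne or both, and not in rbp9. Of these 9 comparisons, 6 were of mutants that lack fne itself and 3 of mutants that keep it. Rbp9 appeared once, in elav-fne early embryos. Only the 3 entries of fne in mutants that keep it and the 1 of Rbp9 are of a gene that was not mutated. As background, the lists held 1.47% of the genes with at least 2 segments in elav early, 0.459% in fne early and 0.0475% in rbp9 early. The shares were 1.18% in elav-rbp9, 1.86% in elav-fne early, 2.25% in elav-fne-rbp9 and 0.309% in fne-rbp9. Late, they were 0.578% in elav, 0.0634% in fne and 1.36% in elav-fne. Every listed gene had at least 2 segments marked as 3′ UTR, as the 3 members do. Over the 5046 early and 5048 late genes with that many, the shares were higher, such as 3.67% in elav early, 1.15% in fne early, 4.66% in elav-fne early, 1.45% in elav late and 3.41% in elav-fne late. Within a stage all mutants were set against the same wild-type libraries, in separate fits, so values from different mutants were not tested against each other. Whole embryos were sequenced, so a different share of neurons and a different use of a segment within neurons cannot be told apart.

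The distal part of the elav 3′ UTR was used less in each of the 4 early mutants that lack elav. Here elav was the mutated gene itself, as in all 6 comparisons of the first experiment that list it. Without the alleles, a change of its transcripts by the mutation cannot be told apart from a change in the choice of 3′ UTR. The entry was the same in all of them, segment 7, at X:509880-513105, which spans bases 4687 to 7912 past the stop codon. In elav early embryos the fitted use score, a value without a unit, was 26.5 in the mutant and 54.2 in wild type, in the authors' deposited table. In the corresponding authors' deposited tables the scores were 22.3 in elav-rbp9 and 45.5 in wild type, and 19.7 in elav-fne and 46.3 in wild type. In elav-fne-rbp9, the authors' deposited table gave 32.2 in the mutant and 54.6 in wild type. The mutant scores were 19.7 to 32.2. Only decreases are listed, so a mutant score below that of wild type was set in advance. The wild-type scores came from the same 3 libraries each time, so their range of 45.5 to 54.6 shows how far this score moved between fits. The wild-type score of the fne entry shared by fne late and elav-fne late moved further, from 15.0 to 26.3.

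As log2 folds, mutant over wild type, the authors' deposited tables gave elav -2.68 in elav early, -2.61 in elav-rbp9, -3.08 in elav-fne early and -2.13 in elav-fne-rbp9. All 4 passed the authors' threshold, with adjusted p between 5.7e-123 and 7.4e-27 in the authors' deposited tables. These folds were larger than the log2 ratios of the scores beside them. The scores of elav early give a log2 ratio of -1.03, and the 16 folds of the family were 1.75 to 3.34 times the log2 ratios of their scores. The sign was negative on both scales for all 16, as lists of decreases fix in advance. By size, elav was number 23 of 185 genes in elav early, 21 of 149 in elav-rbp9, 56 of 235 in elav-fne and 92 of 284 in elav-fne-rbp9. The mutated elav was thus not at the top of these lists. In elav-fne early and elav-fne-rbp9, fne was mutated too and was number 1.

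In late embryos the listed part of elav, again the mutated gene, was at the other end of the 3′ UTR. The entry in both late mutants was segment 4, at X:517236-519242. Of its 2007 bases, 1448 are coding, and it ends at the shortest annotated transcript end, 556 bases past the stop codon. The score was 26.2 in elav late and 33.9 in wild type, and 29.0 in elav-fne late and 38.6 in wild type, in the authors' deposited tables. The log2 folds were -1.23 in elav late (adjusted p = 7.5e-11) and -1.28 in elav-fne late (adjusted p = 5.3e-20) in the authors' deposited tables. Early and late values of elav therefore refer to segments that share no base and were not compared. Mean normalised counts behind the entries were 123.1 to 279.9 early and 286.3 to 348.6 late, over mutant and wild type together.

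The extended 3′ UTR of fne was used less where elav was lost and fne itself was intact. In elav early and elav-rbp9 the entry joined segments 18 to 21, at X:12946693-12950417. This run starts 1 base past the end of the shortest annotated fne transcript and reaches the end of the longest. Its score was 14.3 in elav early and 49.8 in wild type, and 13.9 in elav-rbp9 and 41.8 in wild type, in the authors' deposited tables. The mutant scores were 28.6% and 33.2% of the wild-type ones in the authors' deposited tables. The log2 folds were -4.13 in elav early (adjusted p = 4.2e-256) and -3.72 in elav-rbp9 (adjusted p given as 0) in the authors' deposited tables. By size, fne was number 3 of 185 genes and number 5 of 149.

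Late elav embryos had a smaller fold at nearly the same bases of fne. The entry covered X:12946693-12950156, which leaves out the last segment of the early entry. Its score was 22.0 in elav late and 33.5 in wild type, with a log2 fold of -1.94 (adjusted p = 7.0e-66), in the authors' deposited table. The mutant score was 65.6% of the wild-type one, and fne was number 20 of 73 genes. Early and late embryos share no library, but the 2 fits give no error of a fold, so the difference was not tested.

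**Figure D2:**
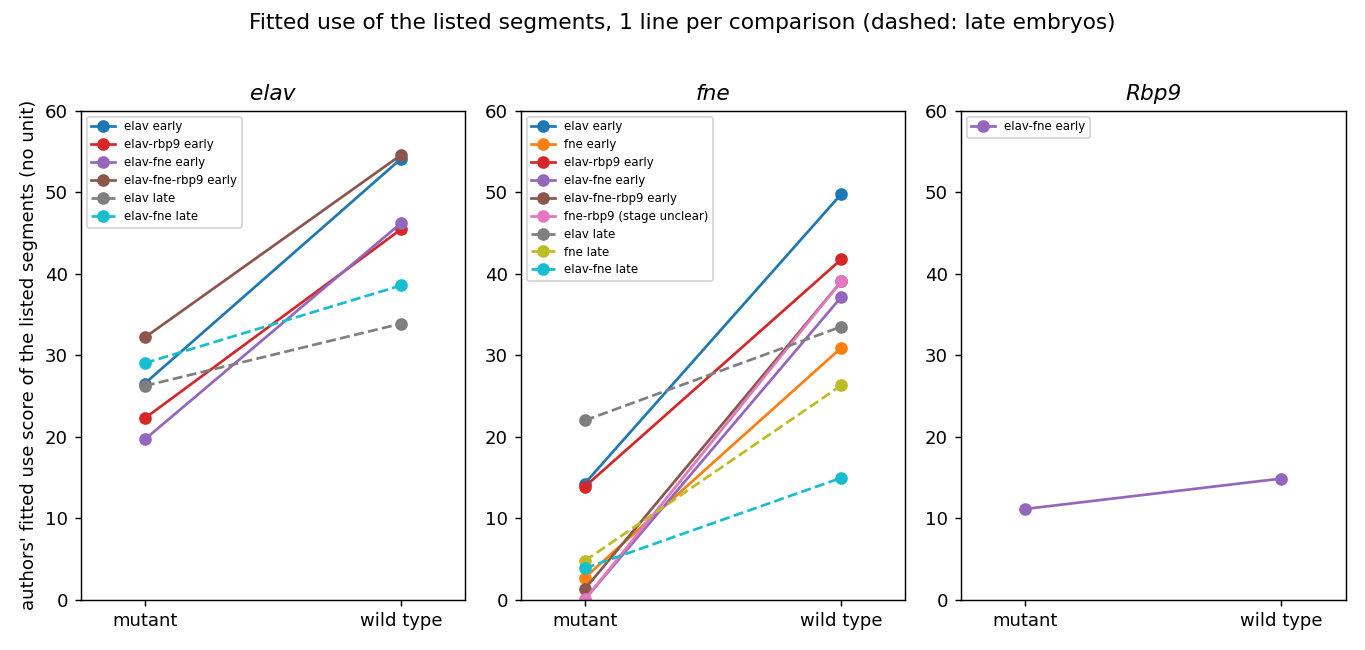
The authors' fitted use score (no unit) of each listed entry, with the mutant on the left and wild type on the right of each panel, and 1 line per comparison. Every line is lower in the mutant, since only decreases are listed. In fne, the 6 mutants that lack fne lie between 0.019 and 4.76, and the 3 that keep it between 13.9 and 22.0.

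In the 6 mutants that lack fne, the listed part of the gene reached nearer to the stop codon. The entry began at base 12945778, 288 bases past the stop codon, in fne early, fne-rbp9 and elav-fne early. It began at base 12945166, with the segment that holds the stop codon and 322 coding bases, in elav-fne-rbp9, fne late and elav-fne late. All 6 entries ended at base 12950156, and none included the last segment, X:12950156-12950417. These are the values of the mutated gene itself, and without the alleles a change of its transcripts by the mutation cannot be told apart from a change in the choice of 3′ UTR.

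The mutant scores were close to 0 in part of these comparisons. In fne early the authors' deposited table gave 2.70 in the mutant and 30.9 in wild type. In elav-fne early the scores were 0.019 in the mutant and 37.2 in wild type, and in fne-rbp9 embryos 0.020 in the mutant and 39.1 in wild type, in the authors' deposited tables. The triple mutant had 1.30 against 39.1 in wild type, in the authors' deposited table. In late embryos the authors' deposited tables gave 4.76 in the fne mutant against 26.3 in wild type, and 3.84 in the elav-fne mutant against 15.0 in wild type. These late wild-type scores, 26.3 and 15.0, belong to the same entry and the same libraries, and differ only by the fit. Only decreases are listed, so a mutant score below that of wild type was set in advance here too.

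The log2 folds of fne ran over a wide range in these 6 mutants. They were -8.47 in fne early, -21.76 in fne-rbp9, -19.18 in elav-fne early and -11.87 in elav-fne-rbp9 in the authors' deposited tables. For late embryos the authors' deposited tables gave -5.74 (fne) and -4.56 (elav-fne). A fold whose mutant score is near 0 depends on the fit and gives no firm size of the decrease. This applies to the largest 2, of elav-fne early and fne-rbp9, whose mutant scores were 0.019 and 0.020. In 4 of the 6 tables fne had the largest fold of the list, it was number 2 of 8 in fne late and number 8 of 172 in elav-fne late.

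Rbp9 was listed in elav-fne early embryos and in no other comparison. The entry was segment 18, at 2L:2965391-2968434, the last of the gene, from base 2005 past the stop codon to its annotated end. The score was 11.1 in elav-fne and 14.9 in wild type, a mutant score of 74.9% of wild type, in the authors' deposited table. The log2 fold was -0.87 with an adjusted p of 7.5e-05 in the authors' deposited table. Both lie close to the limits of the list. Rbp9 was number 214 of 235 genes by fold and number 231 by p. The mean normalised count was 17.4 in the authors' deposited table, against a median of 105.1 over the list, so this entry rests on a low count. Rbp9 had no entry in rbp9, elav-rbp9, fne-rbp9 or elav-fne-rbp9, the 4 mutants that lack it.

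**Figure D3:**
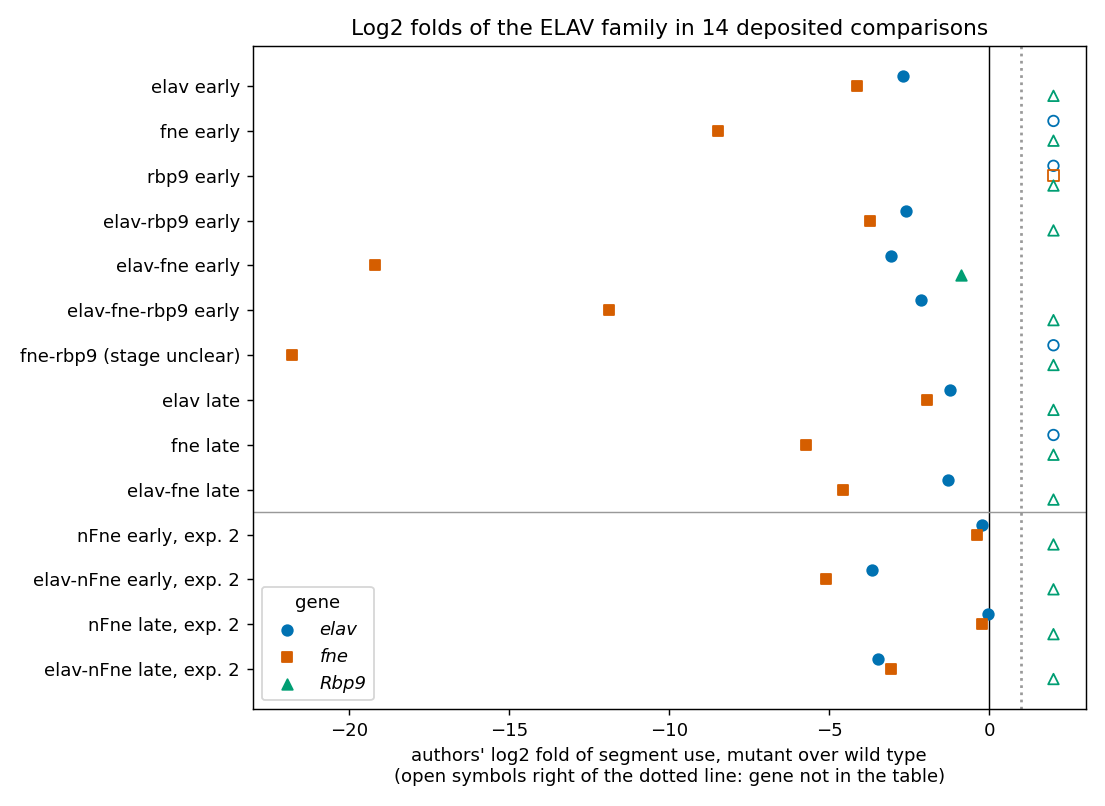
Log2 folds (mutant over wild type) as given by the authors for the 3 genes in the 10 comparisons of the first experiment (above the line) and the 4 of the second. Open symbols to the right mark a gene that is not in the table. Among mutants that keep fne, its values lie between -4.13 and -1.94, and in elav-nFne the 2 genes lie between -5.10 and -3.07.

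The second experiment gave values at fixed segments of elav and fne, also where they did not pass. It covered 173 genes with a fold, and Rbp9 was not among them. The file held 174 genes, and all 174 were in the list of elav early embryos, so the genes and segments were fixed by a decrease already seen in that mutant. The values are weighted over the segments of a gene, and the p is the smallest over them. At elav segment 7, the log2 fold was -3.66 in elav-nFne early (adjusted p = 5.4e-48) and -3.48 in elav-nFne late (adjusted p = 1.6e-113) in the authors' deposited tables. In nFne the same segment had -0.24 early (adjusted p = 0.65) and -0.04 late (adjusted p = 0.85) in the authors' deposited tables. As background, 82.1% of the 173 genes passed an adjusted p of 0.05 with a lower use in elav-nFne early, 90.2% in elav-nFne late, 2.89% in nFne early and 14.5% in nFne late. The late elav-nFne value shows a distal decrease of elav at a stage at which the first experiment listed only the segment at the stop codon. In elav-nFne too, elav is a mutated gene, and its allele is not given. The segment is not a unit of the late annotation, so the first experiment had no late value for it.

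The fne extension, segments 18 to 21, passed in all 4 comparisons of the second experiment. Its log2 fold was -5.10 in elav-nFne early (adjusted p = 2.6e-64) and -3.07 in elav-nFne late (adjusted p = 7.7e-187) in the authors' deposited tables. In nFne it was -0.37 early (adjusted p = 0.0075) and -0.23 late (adjusted p = 0.035) in the authors' deposited tables. The median over the 173 genes was -1.84 and -1.43 in elav-nFne early and late, and -0.15 and -0.37 in nFne early and late. The fne value in nFne was thus below the median early and above it late. At the same bases of fne, elav early in the first experiment had -4.13, and at elav segment 7 it had -2.68, in the authors' deposited table. The experiments used different wild-type libraries, and the first gives a joint value for the run where the second gives a weighted one. If nFne is a form of FNE, as stated above, fne itself was altered in these 4 comparisons but intact in elav early. Without the allele, a change of fne transcripts by the mutation cannot be told apart from a change in the choice of 3′ UTR.

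Likeness of pattern was measured over the 10 comparisons of the first experiment, as the number of lists that hold 1 gene of a pair and not the other, then as the mean absolute difference in log2 fold where both are listed. For elav, 34 of the 377 genes sharing a list with it had the same 6 lists. The nearest were CG43901 (mean difference 0.56), Cdep (0.60) and Alk, a receptor tyrosine kinase (0.64). In the authors' deposited tables CG43901 had -2.55 (elav early) and -3.47 (elav-fne early), and Cdep had -2.37 and -2.55. For fne, no gene had the same 9 lists. The splicing regulator sm (Smooth) lacked fne late, and SelR had all 10 lists, so each differed in 1 list. Ldh, lactate dehydrogenase, differed in 2. The folds of these 3 were far from those of fne, with mean differences of 6.99, 7.85 and 4.75. Of 415 genes in any list, 1 was in exactly 9 lists, and that was fne, with 6 of the 9 from mutants that lack fne. For Rbp9, 21 of the 234 other genes of its single list were in no other list, and the nearest of these were wapl (-0.87), the acetylcholine receptor subunit nAChRalpha1 (-0.84) and Unc-76 (-0.90) in the authors' deposited table. A likeness over 1 list says little.

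Other regulators of neuronal RNA and the factors of the cleavage and polyadenylation machinery were counted in the same lists of decreases. Of 32 RNA-binding and translational regulators with at least 2 segments, 14 were listed in elav early, 13 in elav-rbp9, 20 in elav-fne early and 16 in elav-fne-rbp9. Over all genes the shares listed were 1.47%, 1.18%, 1.86% and 2.25%, or 3.67%, 2.95%, 4.66% and 5.63% over genes with at least 2 3′ UTR segments, which 31 of the 32 have. The counts were 4 in fne early, 2 in fne-rbp9 and 0 in rbp9, where 0.459%, 0.309% and 0.0475% of all genes were listed. Late they were 9 in elav, 1 in fne and 12 in elav-fne, where the shares over all genes were 0.578%, 0.0634% and 1.36%. The median fold of the 20 in elav-fne early was -1.67, and that of all 235 genes listed there was -1.73. In that list the largest decreases of the group were at Sxl (Sex-lethal, -18.27, with a mutant score of 0.020), Imp (-5.40), the translational repressor pum (-4.54) and sm (-4.19), in the authors' deposited table. Of 12 cleavage and polyadenylation factors, 0 were listed in 8 of the 10 comparisons. With at most 1.47% of all genes listed in those 8, a list of 12 genes with no entry says nothing about these factors, and 6 of the 12 had at least 2 early 3′ UTR segments. Pcf11, a subunit of the cleavage complex, was listed in elav-fne early (-0.78) and elav-fne-rbp9 (-1.36), and Pabp2, the nuclear poly(A)-binding protein, in elav-fne-rbp9 (-2.26), in the authors' deposited tables. Both groups of genes were assembled with earlier results of these data known.

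In wild-type adult heads the 3 genes differed in level in the order Rbp9, fne and elav. The values are named TPM in the file, but they summed to 360087 and 365410 over its genes, well below the fixed total that TPM values have by definition. They are compared here within the file and not with TPM from other sources. Rbp9 had 85.4 TPM in replicate 1 and 90.8 TPM in replicate 2, a mean of 88.1 ± 3.80 TPM (SD, n = 2). The fne gene had 24.4 and 25.3 TPM, a mean of 24.8 ± 0.64 TPM (SD, n = 2). The elav gene had 13.4 and 13.3 TPM, a mean of 13.4 ± 0.06 TPM (SD, n = 2). The values of no 2 genes overlapped. As ratios of the mean values, with no pseudocount, Rbp9 was 3.55 times as high as fne and 6.58 times as high as elav, and fne was 1.85 times as high as elav. With 1 group of 2 libraries no test was made, and each gap exceeded the SDs of both genes.

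Among all 17753 listed genes, Rbp9 exceeded 96.0%, fne 85.8% and elav 75.3%. Among the 9153 genes of at least 1 TPM, the shares were 92.2%, 72.4% and 52.1%. These levels are per base of all annotated exons together, 8054 bases for Rbp9, 9516 for fne and 10715 for elav. A gene whose transcripts mostly end early is therefore given a lower value per base. Each value times the exon width was a whole multiple of 1 number, the same in both libraries, for 100% of the values above 0 (within 0.01). Read this way, the libraries held 63439635 and 64476913 reads at the listed genes. Rbp9 had 52372 and 55670 of them, fne 17655 and 18316, and elav 10960 and 10889. Since the common number was the same in both libraries, the values were not scaled to the read total of each library. The SDs between replicates therefore include differences in depth. The exact 95% Poisson interval of elav in replicate 1 was 13.2 to 13.7 TPM, and that of Rbp9 was 84.7 to 86.1 TPM, which covers counting error only.

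The heads were mixed tissue. All 10 neuron markers were present, from 34.8 TPM for VAChT to 293.4 TPM for nSyb, the neuronal synaptobrevin. All 6 glia markers and all 6 muscle markers were present too, with medians of 123.1 and 256.4 TPM. Levels of the family per neuron were therefore not measured. The RNA-binding and translational regulators had a median of 25.3 TPM over 32 genes, from 2.57 TPM for Imp to 68.4 TPM for ps, and none of them reached Rbp9. The cleavage and polyadenylation factors had a median of 4.28 TPM over 13 genes.

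**Figure D4:**
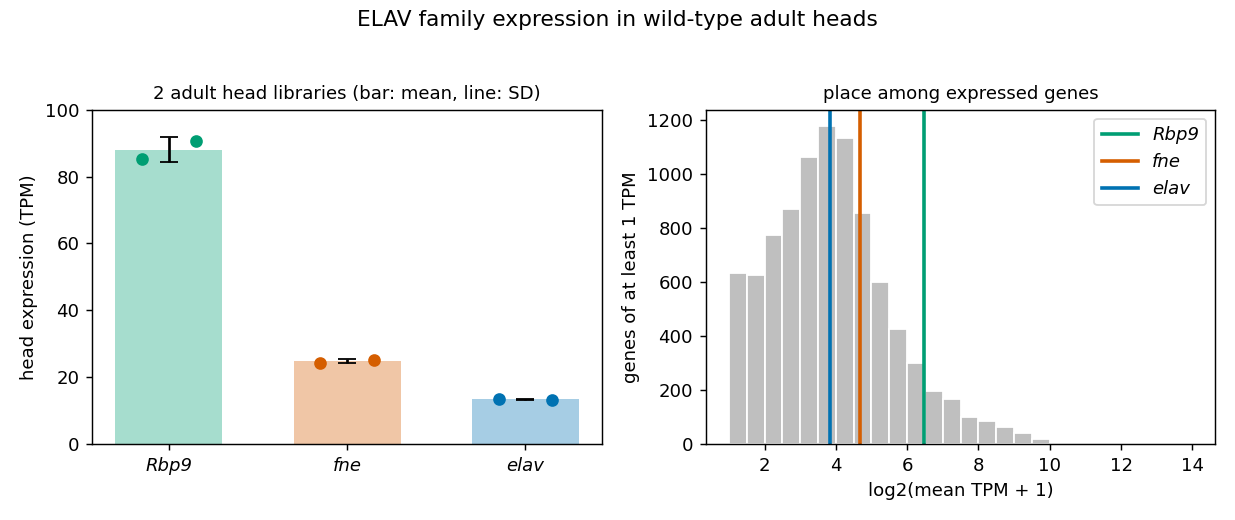
Left, head expression in TPM of the 3 genes, with the mean as a bar, the SD as a line and the 2 libraries as points. Right, the number of genes of at least 1 TPM by log2(mean TPM + 1), with a line at each gene. Rbp9 is the highest at 88.1 TPM, and elav, at 13.4 TPM, lies near the middle of the distribution.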

How the data were processed

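Libraries were grouped by the labels. Per the submitters' processing notes the genome build was dm6, and per the file headers the segment annotations were written with rtracklayer 1.40.5. No aligner or tool for segment use is named in the labels or headers. The log2 folds, p-values and adjusted p-values are the authors' own, per the file headers. The use score, dispersion and test statistic (other scores), and the mean normalised count, a coverage signal, are the authors' as well. TPM values were used as the authors deposited them, although their sum is below the usual TPM total.

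No test was made here, because the embryo files hold no value per library. The labels do not state whether replicates were separate collections of embryos, so the authors' p-values may measure technical spread. Depth per embryo library is unknown. Transcript ends came from Ensembl 115 (BDGP6.54, coordinates as in dm6). Background shares were taken over genes with at least 2 segments, 12624 early and 12625 late. The number of genes the authors tested is not given. Head folds are ratios of mean TPM with no pseudocount, and the log2 difference used to compare settings is on the log2(TPM + 1) scale.

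Members and lists were chosen with earlier results of these data known. Named were the 3 genes, the 3 nearest genes of each by pattern of listing, and the 4 largest decreases of each list in elav-fne early. Pabp2, VAChT, nSyb and ps were named after their values were seen. The routines were tested on simulated data. Calculations used Python 3.11.15, numpy 2.4.6, pandas 2.3.3 and scipy 1.17.1, and plots matplotlib 3.10.9.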

Additional observations from a re-analysis of the deposited data

How the results depend on the processing

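Of the 16 listed entries of the family, 15 remained with an adjusted p under 1e-06 and 15 with a log2 fold of -1 or lower. Rbp9 is the entry lost in both cases. The median of the 16 folds was -3.40. It was -1.41 on the scale of the log2 ratio of the use scores, because the authors' folds exceed that ratio at each entry. It was -2.37 without fne in the mutants that lack fne, an alternative chosen after seeing the data, which leaves 10 entries. Of these 10, 6 are elav in mutants that lack elav, so most are still of a mutated gene. Over genes with at least 2 3′ UTR segments, the shares of genes listed ranged from 0.119% (rbp9 early) to 5.63% (elav-fne-rbp9), and from 0.0475% to 2.25% over genes with at least 2 segments of any kind. The difference of Rbp9 over elav in heads, on the log2(TPM + 1) scale, was 2.63, from 2.58 to 2.68 with 1 library left out. It was 2.71 with a pseudocount of 0.1 and 2.72 with none. It was 2.63 after scaling both libraries to the same sum, also chosen after seeing the data. The late annotation gave the family 12 segments marked as 3′ UTR and the early one 15. Poly(A) signal letters near segment ends were not examined. No paired analysis was possible because the embryo comparisons have no values per library and the heads form a single group.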

Other observations

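The genes beside the family in the genome differed in what was listed. The gene hec, a receptor gene on the opposite strand, ends 18 bases past the end of fne. Its listed segment, X:12951114-12951683, lies 696 bases past the end of fne. It had a use score of 0.032 in fne late and 8.38 in wild type, and of 0.032 in elav-fne late and 7.99 in wild type, in the authors' deposited tables. The mean normalised counts of hec were 32.6 and 28.1, against medians of 102.8 and 75.0 over these lists. With low counts and mutant scores near 0, these entries give no firm size of the decrease. In the early comparisons of mutants that lack fne, hec was not listed. In heads hec had 2.32 and 2.80 TPM.

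The elav gene shares 10121 bases with the non-coding gene lncRNA:enrr on the same strand, whose annotated end is at X:513106, 1 base from the edge of the elav segment listed early. The shared bases are those of whole gene spans, and the exons of lncRNA:enrr were not examined. That gene had no segments in the authors' annotation. Reads of the 2 therefore cannot be told apart wherever its exons lie in elav segments 1 to 6. The protein-coding gene arg overlaps elav by 13792 bases on the opposite strand and was in no list, with 6.91 and 4.83 TPM in heads. Ts overlaps the last 142 bases of Rbp9 on the opposite strand and was in no list, with 1.15 and 1.17 TPM. The libraries were stranded, per the labels' protocols. The next gene upstream of Rbp9, lilli, ends 355 bases before it on the same strand and was listed in 4 comparisons, with log2 folds in the authors' deposited tables of -1.44 (elav early) and -2.88 (elav-fne early).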
